A study of Mus musculus with 13 samples.

Results

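The miR-17~92 and miR-106b~25 clusters are paralogous groups of miRNA hairpins, and their products were followed here in the small RNA-seq of thymic iNKT cells from WT and *Tet2/3* DKO mice. Members were chosen by name. They were the 9 hairpins listed as mmu-mir-17, mmu-mir-18a, mmu-mir-19a, mmu-mir-20a, mmu-mir-19b-1 and mmu-mir-92a-1 in miR-17~92 and as mmu-mir-106b, mmu-mir-93 and mmu-mir-25 in miR-106b~25, of 1127 hairpins counted. All 20 mature rows of these names, of 1297 counted, were also members. Of these, 18 can be made by the 9 hairpins. The other 2, miR-19b-2-5p and miR-92a-2-5p, come only from hairpins of a further paralogous cluster on the X chromosome, which runs from mir-106a to mir-363. The prefix mmu, for mouse, is left out from here on, hairpins are written mir and mature miRNAs miR, and 5p and 3p name the arm of the hairpin from which a mature miRNA is cut.

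Invariant natural killer T (iNKT) cells carry a nearly fixed TCR and respond to lipid antigens. Each of the 13 libraries came from 1 mouse. The *Tet2/3* DKO mice (7 mice) were *Tet2*-/- *Tet3* flx/flx CD4 cre, so that *Tet2* was absent from the whole animal and *Tet3* was deleted in T cells from the stage at which CD4 cre acts. The controls (6 mice) were C57BL/6 WT mice. Mice were 21 to 25 days old, both sexes were used in each genotype, and cells were sorted as tetramer+ TCRβ+ thymocytes after depletion of CD24+ cells. The sex of single mice is not given in the labels, and no test took sex into account.

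Hairpins of one cluster are transcribed together in a single primary transcript, from which Drosha with its partner DGCR8 cuts each hairpin. Dicer then cuts the hairpin into a duplex, from which an Argonaute protein keeps mainly one arm, the guide, while the other, the passenger, is mostly lost. The miR-17~92 cluster is a Myc target known for promoting the growth and survival of lymphocytes, and it acts in part by repressing *Bcl2l11* (Bim). In mouse knockouts miR-106b~25 adds to its functions. MiRNAs with the same seed, the bases that pair with target mRNAs, repress largely overlapping sets of targets.

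In GRCm38.p6 the hairpins of miR-17~92 lie within 836 bases of the plus strand at chr14:115043671-115044506, in an exon of the lincRNA gene *Mir17hg*. Those of miR-106b~25 lie within 498 bases of the minus strand at chr5:138165321-138165818, inside *Mcm7*, which encodes a subunit of the replicative helicase. There, mir-106b is intronic, and mir-93 and mir-25 overlap an exon of at least 1 annotated *Mcm7* transcript. The paralogous cluster from mir-106a to mir-363 spans 875 bases of the minus strand at chrX:52741693-52742567.

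RefSeq (GRCm38.p6) held a sequence for 19 of the 20 member mature rows, all but miR-19a-5p. The more abundant arms of the 9 hairpins are shown 5′ to 3′ with the seed, bases 2 to 8, in capitals, because members of one seed are compared between the clusters. The first 4 share the seed AAAGUGC, with miR-17-5p and miR-20a-5p from miR-17~92 and miR-106b-5p and miR-93-5p from miR-106b~25. The seed AAGGUGC is that of miR-18a-5p, GUGCAAA that of miR-19a-3p and miR-19b-3p, and AUUGCAC that of miR-92a-3p and miR-25-3p.
miR-17-5p: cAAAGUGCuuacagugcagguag
miR-20a-5p: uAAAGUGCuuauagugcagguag
miR-106b-5p: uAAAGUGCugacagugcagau
miR-93-5p: cAAAGUGCuguucgugcagguag
miR-18a-5p: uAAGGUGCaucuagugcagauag
miR-19a-3p: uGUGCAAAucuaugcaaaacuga
miR-19b-3p: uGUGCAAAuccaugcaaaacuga
miR-92a-3p: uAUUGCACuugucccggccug
miR-25-3p: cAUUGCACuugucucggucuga

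Several members are nearly the same molecule. Counted from 1 at the 5′ end, miR-20a-5p differs from miR-17-5p by C1U and C12U, miR-19b-3p differs from miR-19a-3p by U11C, and miR-25-3p differs from miR-92a-3p by U1C, C14U and C18U over 21 compared bases. From the X chromosome cluster, miR-106a-5p differs from miR-17-5p by U10A alone. In addition, miR-19b-3p and miR-92a-3p are each made by a hairpin of miR-17~92 and a hairpin of the X chromosome cluster, mir-19b-2 or mir-92a-2, and no count can divide them. How reads that match several of these sequences were counted is not given in the sources used here. Counts of near-identical members could be split between them or hold the same reads. Outside the clusters, mir-30e and mir-30f had equal counts in every library (1031 each in WT 1). The counts of mir-92a-1 and mir-92a-2 were not equal (9923 and 4292 in WT 1). How far members share reads was not tested.

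The 3 hairpins below have both mature arms in capitals. They are shown because mir-17 and mir-20a were the hairpins whose arm ratio differed between genotypes, and mir-106b the one whose hairpin count differed relative to its mature count.
mir-17 (chr14:115043671-115043754, plus strand): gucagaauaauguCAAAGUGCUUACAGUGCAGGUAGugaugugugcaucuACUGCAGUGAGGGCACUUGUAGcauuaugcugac
mir-20a (chr14:115044157-115044263, plus strand): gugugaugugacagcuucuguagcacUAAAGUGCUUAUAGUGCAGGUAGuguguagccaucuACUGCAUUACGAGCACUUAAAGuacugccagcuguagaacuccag
mir-106b (chr5:138165737-138165818, minus strand): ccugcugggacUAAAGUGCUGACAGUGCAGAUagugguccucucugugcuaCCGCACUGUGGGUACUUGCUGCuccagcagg

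Levels are given as CPM, each count being scaled to the effective size of its library after TMM normalization. Hairpin libraries held 469117 to 1110226 counts in WT and 728653 to 1910526 in *Tet2/3* DKO, and mature libraries 1110852 to 2582057 and 1837631 to 4361963, so the median WT library was shallower, although the range of *Tet2/3* DKO overlapped that of WT in both tables. The sort was checked by marker hairpins. The 4 haematopoietic and T lineage markers (mir-142a, mir-150, mir-181a-1 and mir-181a-2) summed to 175948 to 207616 CPM in WT and 165127 to 225269 in *Tet2/3* DKO. These similar sums hide opposite changes, since 2 of the 4 passed as higher in *Tet2/3* DKO (mir-181a-1 and mir-181a-2) and 2 as lower. Counts of mir-181a-1 and mir-181a-2 were nearly equal in each library, and whether the same reads were counted for both was not tested. Markers of other cells were far lower, but 4 lists were lower in *Tet2/3* DKO libraries than in WT libraries. The red cell list (2 hairpins) summed to 123 to 237 CPM in WT and 8.99 to 43.7 in *Tet2/3* DKO, the mesenchymal stroma list (6) to 62.2 to 187 and 9.71 to 37.9, mir-223 of myeloid cells to 20.1 to 310 and 0 to 19.2, and mir-122 of hepatocytes to 4.25 to 22.8 and 0 to 2.99. Epithelial markers (6 hairpins) summed to 170 to 291 CPM in WT and 176 to 237 in *Tet2/3* DKO, and mir-126a of endothelium to 102 to 235 and 95.6 to 145. The part of other cells in the values below was not tested. In a sorted bulk sample, fewer cells of a type and less RNA per cell cannot be told apart.

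All 9 member hairpins passed the filter on low counts, as did 17 of the 20 mature rows. Only miR-19a-5p (0 to 6 counts in WT and 0 to 17 in *Tet2/3* DKO libraries), miR-19b-1-5p (0 to 6 and 3 to 25) and miR-19b-2-5p (0 to 1 and 0 to 6) did not. By edgeR's quasi-likelihood test with Benjamini-Hochberg adjustment over all hairpins tested, 5 of the 9 hairpins were upregulated in *Tet2/3* DKO iNKT cells, 1 was downregulated and 3 did not pass. Of all 350 hairpins tested, 32.6% were upregulated and 27.1% downregulated. Among mature members, 6 of 17 were upregulated, 2 downregulated and 9 did not pass, beside 28.2% upregulated and 27.4% downregulated of the 401 tested. The mature count upregulated was thus close to the background, and the hairpin count somewhat above it. The median log2 fold change of *Tet2/3* DKO over WT was 0.51 for the member hairpins and 0.02 for all tested, and 0.29 for the mature members and -0.01 for all tested. No member reached an absolute log2 fold change above 2, which 29 hairpins and 45 mature miRNAs did.

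All 4 members with the seed AAAGUGC were upregulated as mature miRNAs, as were their 4 hairpins. The only member hairpin downregulated was mir-92a-1, whose guide carries the seed AUUGCAC, while mir-25, the other hairpin of that seed, did not pass. In 3 hairpins every *Tet2/3* DKO library was above every WT library, which 18% of all tested hairpins were, and none was below every WT library, which 14% were. For mature members, 2 were above every WT library and none below, beside 12.7% and 14.5% of all tested.

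In the miR-17 seed family, miR-17-5p is the founding member of miR-17~92. It was at 4303 CPM in the lowest, 5843 in the median and 6223 in the highest WT library, and at 8995, 10075 and 12799 CPM in *Tet2/3* DKO. No library of one genotype lay within the range of the other, and the log2 fold change was 0.89 (SE 0.117, edgeR adjusted p = 1.94e-06), or 1.85-fold. Its hairpin mir-17 was at 2929, 4163 and 4755 CPM in the lowest, median and highest WT library and at 5515, 6959 and 8272 in *Tet2/3* DKO. These ranges were also apart, with a log2 fold change of 0.74 (SE 0.123, edgeR adjusted p = 6.42e-05).

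The level of miR-20a-5p, encoded 3 hairpins downstream and nearly identical to miR-17-5p, was 3673, 4902 and 5198 CPM in the lowest, median and highest WT library and 6828, 8031 and 11063 in *Tet2/3* DKO. It followed miR-17-5p, with ranges apart and a log2 fold change of 0.84 (SE 0.124, edgeR adjusted p = 9.18e-06). For its hairpin mir-20a the values were 1765, 2464 and 2767 CPM in WT and 3069, 3623 and 4677 in *Tet2/3* DKO, again apart, with a log2 fold change of 0.66 (SE 0.127, edgeR adjusted p = 2.13e-04).

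From the other cluster, miR-93-5p was at 5658, 6748 and 7656 CPM in the lowest, median and highest WT library and at 7218, 9181 and 11892 in *Tet2/3* DKO. The lowest *Tet2/3* DKO library lay below the highest WT library, and the log2 fold change was 0.54 (SE 0.119, edgeR adjusted p = 6.37e-04). Its hairpin mir-93 had a log2 fold change of 0.51 (SE 0.131, edgeR adjusted p = 0.00244), from 1338 to 2060 CPM in WT to 1841 to 3181 in *Tet2/3* DKO, but did not pass with upper-quartile scaling (0.26, edgeR adjusted p = 0.117).

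The remaining member of the seed, miR-106b-5p, was at 1823, 2240 and 2323 CPM in the lowest, median and highest WT library and at 2221, 3138 and 3476 in *Tet2/3* DKO. Its ranges overlapped slightly, and the log2 fold change was 0.51 (SE 0.117, edgeR adjusted p = 8.9e-04). The hairpin mir-106b had the largest hairpin change of the 9, from 1948, 2388 and 2788 CPM in WT to 3058, 4247 and 5455 in *Tet2/3* DKO. There was no overlap, and the log2 fold change was 0.88 (SE 0.130, edgeR adjusted p = 1.9e-05).

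The miR-18 family differs from the miR-17 family by a single seed base. Its member miR-18a-5p was at 1147, 1958 and 2474 CPM in the lowest, median and highest WT library and at 2202, 3706 and 3934 in *Tet2/3* DKO. It was upregulated, although the ranges overlapped, with a log2 fold change of 0.78 (SE 0.165, edgeR adjusted p = 5.18e-04). The hairpin mir-18a was at 288 to 806 CPM in WT and 546 to 1297 in *Tet2/3* DKO (log2 fold change 0.77, SE 0.216, edgeR adjusted p = 0.00533), and came just short with upper-quartile scaling (0.53, edgeR adjusted p = 0.0508).

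The miR-19 family, known as the main oncogenic part of miR-17~92 in B cell lymphoma, was the least abundant of the clusters in these libraries. Counts for mir-19a were 0 to 28 in WT and 19 to 76 in *Tet2/3* DKO, and for mir-19b-1 6 to 32 and 18 to 48. Neither hairpin passed, with log2 fold changes of 0.06 (SE 0.491) and 0.16 (SE 0.345), and these standard errors were the largest of the 9 hairpins, so that differences of the size seen for mir-17 were not resolved at this depth. The guide miR-19b-3p was at 142, 174 and 217 CPM in the lowest, median and highest WT library and at 169, 207 and 339.9 in *Tet2/3* DKO. It overlapped between genotypes and did not pass (log2 fold change 0.29, SE 0.167, edgeR adjusted p = 0.140), except with library size alone as the scale (0.57, edgeR adjusted p = 0.0179). At 13.1 to 27.7 CPM in WT and 13.1 to 30.0 in *Tet2/3* DKO, miR-19a-3p had a log2 fold change of 0.10 (SE 0.285).

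The hairpin mir-92a-1 went the other way. It was by far the most abundant member hairpin, at 22859, 25120 and 35056 CPM in the lowest, median and highest WT library and 15883, 19046 and 23852 in *Tet2/3* DKO. The highest *Tet2/3* DKO library lay above the lowest WT library, and the log2 fold change was -0.47 (SE 0.125, edgeR adjusted p = 0.00280). Its hairpin counts exceeded the counts of its mature arms 5.498-fold in WT. Which reads they hold is not given in the sources used here, and the part of mir-92a-2 in them was not tested. Its guide miR-92a-3p, which mir-92a-2 also makes, was at 1752, 1905 and 2386 CPM in WT and 1075, 1445 and 2155 in *Tet2/3* DKO. The ranges overlapped, and the log2 fold change of the guide was -0.41 (SE 0.142, edgeR adjusted p = 0.0187). Both calls were lost with library size alone as the scale, at -0.14 for mir-92a-1 (edgeR adjusted p = 0.296) and -0.18 for miR-92a-3p (edgeR adjusted p = 0.224), and with the loosest filter on low counts (-0.29, edgeR adjusted p = 0.0752, and -0.32, edgeR adjusted p = 0.0659). The arm made by mir-92a-1 alone, miR-92a-1-5p, had the opposite sign (log2 fold change 0.38, SE 0.275). The arm made by mir-92a-2 alone, miR-92a-2-5p, was at -0.63 (SE 0.338), and neither arm passed.

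Its seed partner miR-25-3p, the most abundant member in WT, was at 8534, 8763 and 11780 CPM in the lowest, median and highest WT library and at 6401, 9146 and 11924 in *Tet2/3* DKO. The *Tet2/3* DKO range enclosed the WT range, and the log2 fold change was -0.03 (SE 0.128, edgeR adjusted p = 0.832). For mir-25 the hairpin values were 1502 to 2144 CPM in WT and 1193 to 2028 in *Tet2/3* DKO, and its log2 fold change was -0.16 (SE 0.127, edgeR adjusted p = 0.273). That hairpin passed as lower with upper-quartile scaling (-0.40, edgeR adjusted p = 0.0209) and had the opposite sign with library size alone (0.17).

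**Figure D1:**
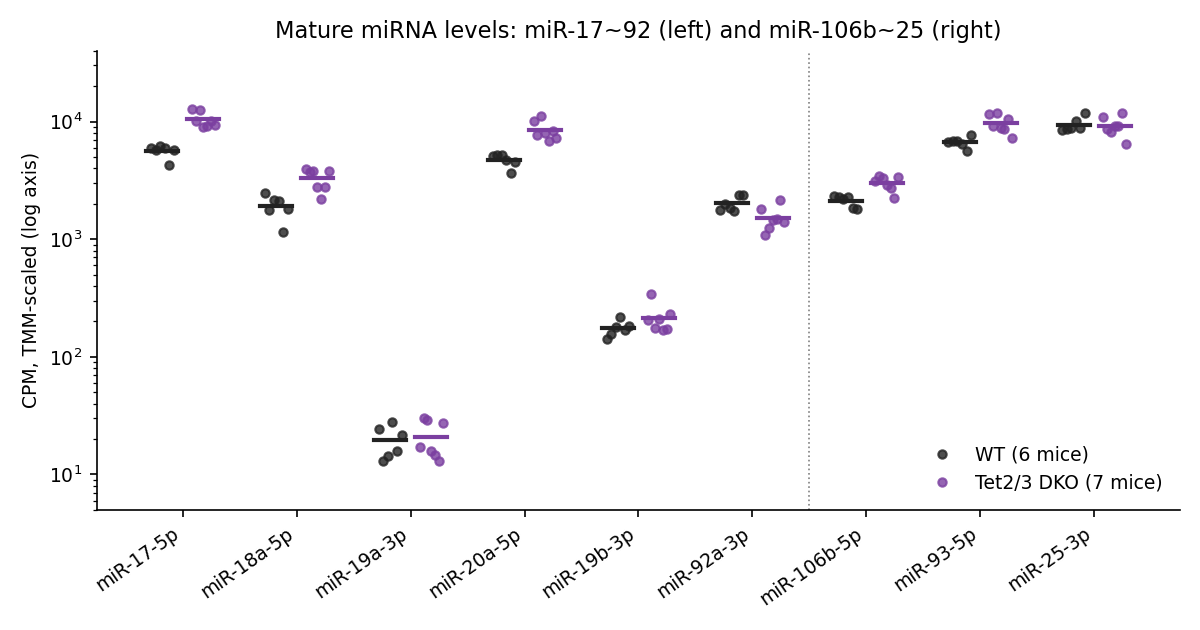
Level of the more abundant mature arm of each hairpin in every library, in CPM of the TMM-scaled library on a log axis, with WT mice in black, *Tet2/3* DKO mice in purple and bars at the group means. The groups are apart for miR-17-5p and miR-20a-5p and overlap for the other 7, and miR-19a-3p and miR-19b-3p sit far below the rest.

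Of the less abundant arms, 6 of the 8 that were tested did not pass. Levels of miR-17-3p were 642, 670 and 737 CPM in the lowest, median and highest WT library and 603, 655 and 845 in *Tet2/3* DKO, and its log2 fold change was 0.01 (SE 0.110, edgeR adjusted p = 0.932). With library size alone miR-17-3p passed as higher (0.25, edgeR adjusted p = 0.0459). For miR-20a-3p the range was 51.6 to 111 CPM in WT and 62.4 to 102 in *Tet2/3* DKO (log2 fold change -0.08, SE 0.191). The arms miR-93-3p (0.07, SE 0.223), miR-18a-3p (0.53, SE 0.422, 1 to 29 counts in WT libraries), miR-92a-1-5p (0.38, SE 0.275) and miR-92a-2-5p (-0.63, SE 0.338) were the others.

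The exceptions were arms of miR-106b~25. The arm miR-25-5p fell from 48.5, 77.1 and 82.8 CPM in the lowest, median and highest WT library to 33.7, 48.3 and 65.6, with overlap (log2 fold change -0.60, SE 0.196, edgeR adjusted p = 0.0136). This call did not hold with library size alone (-0.36, edgeR adjusted p = 0.145) or with the loosest filter (-0.51, edgeR adjusted p = 0.0847). The arm miR-106b-3p rose from 367, 456 and 539 CPM to 451, 528 and 742 (log2 fold change 0.36, SE 0.138, edgeR adjusted p = 0.0313), with overlap. It was the least secure call of the members, since it was lost without any 1 of 11 of the 13 libraries, all but *Tet2/3* DKO 2 and 7, at 0.23 to 0.34, and with upper-quartile scaling (0.18, edgeR adjusted p = 0.232). Every fit without 1 library gave miR-106b-3p less than the reported 0.36. So it was for miR-17-5p (0.75 to 0.87), miR-20a-5p (0.70 to 0.83) and miR-93-5p (0.42 to 0.51), but not for miR-106b-5p or miR-18a-5p. The median of all mature miRNAs also fell in these fits, from -0.01 to between -0.09 and -0.03. The cause was not tested.

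**Figure D2:**
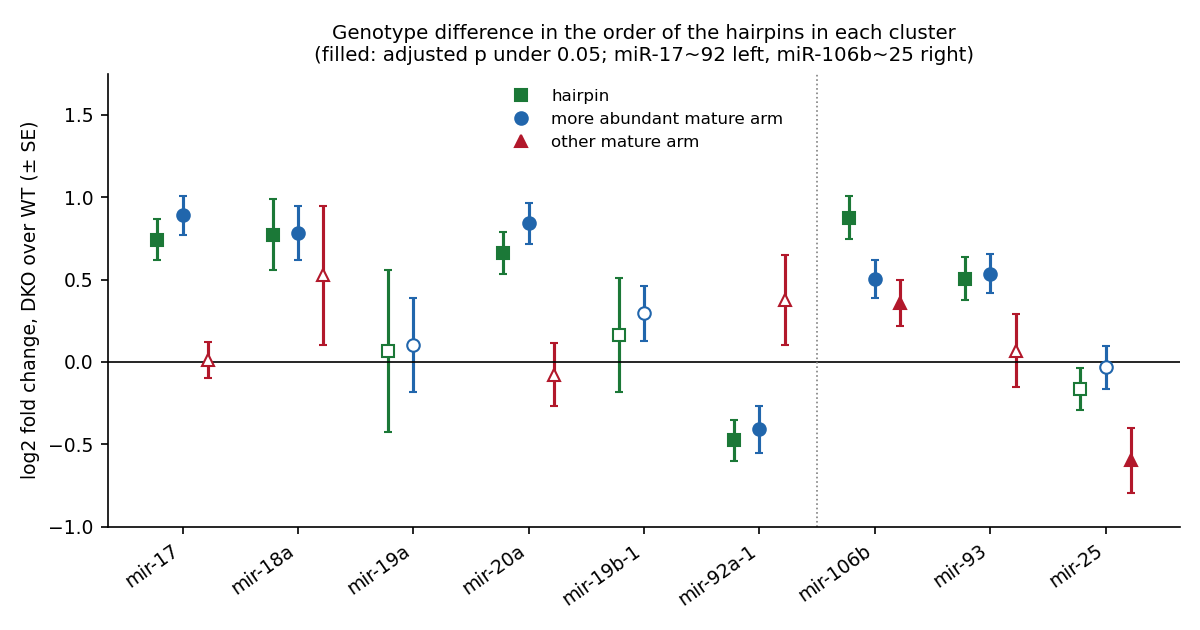
Log2 fold change of *Tet2/3* DKO over WT with its SE for each hairpin (square), its more abundant arm (circle) and its other arm (triangle), in the order of transcription within each cluster, with filled symbols for an adjusted p under 0.05. The symbols of mir-17, mir-18a, mir-20a, mir-106b and mir-93 lie above 0 for hairpin and guide. The hairpin and guide of mir-92a-1 lie below 0, while its other arm lies above 0 with an open symbol. The other arms of mir-17 and mir-20a lie near 0.

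Whether the 2 arms of a hairpin moved together can be asked without any scaling between libraries, from the ratio of their counts within each library. Of 7 hairpins with both arms tested, 2 differed between genotypes by an exact two-sided permutation test, with Benjamini-Hochberg adjustment over the 7. For mir-17 the ratio of 5p to 3p was 6.40 to 9.68 in WT and 12.0 to 20.95 in *Tet2/3* DKO. Every *Tet2/3* DKO library was above every WT library, and the geometric mean went from 8.27 to 15.2, a log2 difference of 0.88 (SE 0.138, exact adjusted p = 0.00408).

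For mir-20a the ratio was 45.5 to 70.9 in WT and 82.1 to 172 in *Tet2/3* DKO, again apart, with geometric means of 59.6 and 111 and a log2 difference of 0.90 (SE 0.158, exact adjusted p = 0.00408). The unadjusted exact p of 0.00117 was in both cases the smallest that 13 libraries divided into 6 and 7 can give. The other 5 did not pass. In mir-92a-1, whose 3p count includes product of mir-92a-2, the log2 difference of 5p to 3p was 0.70 (SE 0.335, exact adjusted p = 0.0848), and in mir-93 it was 0.43 (SE 0.202, exact adjusted p = 0.0848). For mir-25 it was -0.56 (SE 0.208, exact adjusted p = 0.0734), for mir-106b 0.15 (SE 0.196) and for mir-18a -0.09 (SE 0.577). Without the shallowest library of each genotype, WT 1 and *Tet2/3* DKO 7, 4 of the 7 ratios passed, mir-92a-1 and mir-25 being added, as one or the other was without WT 5, *Tet2/3* DKO 5 or *Tet2/3* DKO 7 alone.

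**Figure D3:**
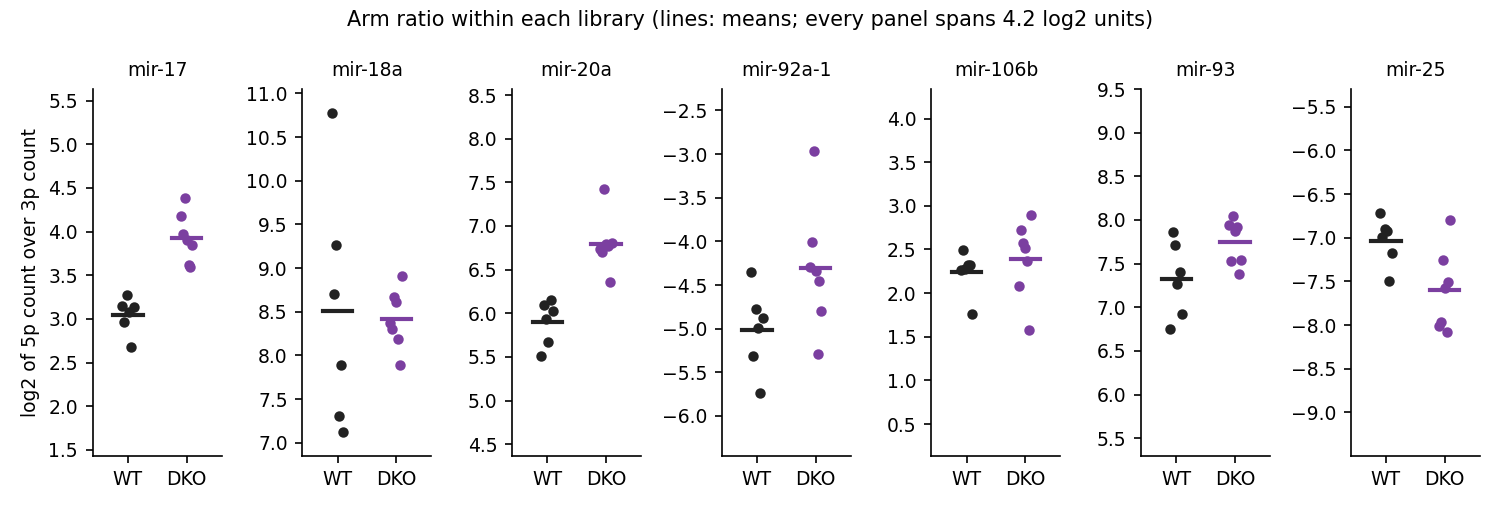
Log2 ratio of the 5p count to the 3p count within each library for the 7 hairpins with both arms tested, with WT in black, *Tet2/3* DKO in purple, lines at the means and panels of equal span. The groups are apart for mir-17 and mir-20a, by 0.88 and 0.90 between means, and overlap in the other 5 panels.

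Hairpin counts were then set against the summed counts of their mature arms. The whole hairpin table held 0.439 counts per mature count in WT and 0.421 in *Tet2/3* DKO (log2 difference -0.06, exact permutation p = 0.170). Among the members the ratio ran from 0.0430 for mir-19b-1 to 0.387 for mir-106b in WT, except for mir-92a-1, where hairpin counts exceeded mature counts 5.498-fold in WT and 5.35-fold in *Tet2/3* DKO. What kind of read was assigned to a hairpin rather than to its mature arm is not given in the sources used here, and the identical 3p arm of mir-92a-2 bears on the mir-92a-1 values. Likewise, the identical 3p arm of mir-19b-2 bears on the mir-19b-1 values, which also rest on only 6 to 32 hairpin counts in WT libraries.

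Of the 9 members, 1 differed between genotypes in this ratio. For mir-106b it was 0.342 to 0.433 in WT and 0.426 to 0.617 in *Tet2/3* DKO, a log2 difference of 0.42 (SE 0.0810, exact permutation adjusted p = 0.0210 over 9 ratios), with a slight overlap. The other 8 had log2 differences between -0.12 (mir-20a) and 0.44 (mir-19a, SE 0.860), with an exact adjusted p of at least 0.572. In mir-17, for which hairpin and guide both rose, the ratio was 0.271 in WT and 0.266 in *Tet2/3* DKO.

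The clusters were next compared by pairs of paralogues with the same seed, again as ratios within a library with exact permutation tests adjusted over 6 pairs. Relative to miR-106b~25, miR-17~92 products of the seed AAAGUGC rose more as mature miRNAs. The ratio of miR-17-5p to miR-106b-5p was 2.34 to 3.14 in WT and 2.80 to 4.58 in *Tet2/3* DKO, a log2 difference of 0.39 (SE 0.117, exact adjusted p = 0.0175). The ratio of miR-20a-5p to miR-93-5p was 0.597 to 0.763 in WT and 0.791 to 0.998 in *Tet2/3* DKO, with no overlap and a log2 difference of 0.31 (SE 0.0765, exact adjusted p = 0.00699).

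For the hairpins of these pairs the difference was smaller. The log2 difference was -0.12 for mir-17 to mir-106b (SE 0.150, exact adjusted p = 0.455) and 0.16 for mir-20a to mir-93 (SE 0.0660, exact adjusted p = 0.0182). The latter was not past the threshold without the shallowest library of each genotype (0.13, exact adjusted p = 0.0571). In the seed AUUGCAC, the miR-17~92 member was lower relative to its paralogue at both levels, although the miR-92a-3p count includes product of mir-92a-2. The ratio of miR-92a-3p to miR-25-3p went from 0.174 to 0.270 in WT to 0.124 to 0.217 in *Tet2/3* DKO (log2 difference -0.38, SE 0.125, exact adjusted p = 0.0175), and that of mir-92a-1 to mir-25 from 13.1 to 16.3 to 10.5 to 14.9 (log2 difference -0.30, SE 0.0801, exact adjusted p = 0.0175).

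Within a cluster the hairpins come from a shared transcript, and 14 ratios to its first hairpin, or to that hairpin's guide, were formed after the member values had been seen. Of these, 5 differed between genotypes by the exact permutation test. As the member fold changes were already known, the p-values of these ratios are descriptive and give no separate evidence. The ratio of mir-92a-1 to mir-17 was 4.81 to 10.3 in WT and 2.04 to 3.71 in *Tet2/3* DKO, apart, with a log2 difference of -1.22 (SE 0.203, exact adjusted p = 0.00816). The guides gave -1.31 (SE 0.206, exact adjusted p = 0.00816), also apart, with miR-92a-3p at 0.293 to 0.549 of miR-17-5p in WT and 0.0990 to 0.212 in *Tet2/3* DKO. The miR-92a-3p count is not of this transcript alone. It includes product of mir-92a-2, whose hairpin fell by more than mir-92a-1 (edgeR log2 fold change -0.84 against -0.47). Which reads the mir-92a-1 hairpin counts hold is, as stated above, not given.

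The ratio of mir-25 to mir-106b, the corresponding ends of miR-106b~25, had a log2 difference of -1.04 (SE 0.239, exact adjusted p = 0.0163), from 0.576 to 1.02 in WT to 0.234 to 0.663 in *Tet2/3* DKO, with overlap. The guides miR-19a-3p (-0.82, SE 0.259, exact adjusted p = 0.0408) and miR-19b-3p (-0.62, SE 0.195, exact adjusted p = 0.0424) were also lower relative to miR-17-5p, but were lost when 1 library was left out in 9 and 10 of 13 cases. Product of mir-19b-2 is part of the miR-19b-3p count. Only 3 ratios passed without WT 4, 5 or 6 or without *Tet2/3* DKO 1, 3, 4 or 5. Without *Tet2/3* DKO 6, both miR-19 ratios were lost, while miR-25-3p to miR-106b-5p (-0.68, exact adjusted p = 0.00758) and mir-93 to mir-106b (-0.47, exact adjusted p = 0.0303) passed. With all libraries, the ratio of miR-25-3p to miR-106b-5p did not pass (-0.55, SE 0.219, exact adjusted p = 0.0843), and those of mir-18a (0.05) and mir-20a (-0.08) to mir-17 were near 0. Without WT 1 and *Tet2/3* DKO 7, 6 of the 14 passed, mir-19a to mir-17 being added (-1.24, exact adjusted p = 0.0404).

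As shares of the cluster's own counts, mir-92a-1 made up 78.9% ± 4.62 (SD) of miR-17~92 hairpin counts in the 6 WT libraries and 62.4% ± 5.18 (SD) in the 7 *Tet2/3* DKO libraries, while mir-17 went from 12.1% ± 2.58 to 22.03% ± 2.80 and mir-20a from 7.18% ± 1.57 to 12.3% ± 1.77. In miR-106b~25, mir-25 went from 30.3% ± 4.65 to 19.1% ± 4.26 and mir-106b from 39.4% ± 3.77 to 50.7% ± 7.09, with mir-93 at 30.2% in both genotypes. Among mature miR-17~92 counts the share of miR-92a-3p, with the product of mir-92a-2 included, was 13.4% ± 3.24 in WT and 6.18% ± 1.54 in *Tet2/3* DKO. The hairpin shares of miR-17~92 depend on the mir-92a-1 counts, for which the kind of read is not given.

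Summed hairpins and summed mature arms gave different cluster totals, which are described without a test. Most of the miR-17~92 hairpin sum was mir-92a-1, for which the kind of read is not given. The summed hairpins of miR-17~92 were at 34215 ± 4204 CPM (SD) in the 6 WT libraries and 31181 ± 4020 CPM (SD) in the 7 *Tet2/3* DKO libraries, a log2 difference of -0.14 that was 0.20 with library size alone. Its summed mature arms were 15335 ± 1459 CPM and 24849 ± 3635 CPM, a log2 difference of 0.69 with no overlap between genotypes. Without the arms that the X chromosome cluster also makes, the log2 difference of this sum was 0.81, again with no overlap. For miR-106b~25 the hairpins summed to 5999 ± 390 CPM in WT libraries and 8543 ± 909 CPM in *Tet2/3* DKO libraries (0.51, no overlap), and the mature arms to 18804 ± 1754 and 22593 ± 3049 CPM (0.26, with overlap).

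Summed by seed, the AAAGUGC family of all 3 paralogous clusters went from 22273 ± 1783 CPM (SD, n = 6) to 35705 ± 5255 CPM (SD, n = 7), 1.59-fold, with the lowest *Tet2/3* DKO library at 30961 CPM and the highest WT library at 23727 CPM. The share from miR-17~92 was 46.5% ± 2.30 in WT and 53.0% ± 1.14 in *Tet2/3* DKO, that from miR-106b~25 39.6% ± 1.38 and 35.6% ± 1.10, and that from the X chromosome cluster 13.9% ± 2.14 and 11.4% ± 0.721. The miR-18 family summed to 1937 ± 452 and 3321 ± 691 CPM, of which miR-18a-5p gave 98.4% in WT and 98.9% in *Tet2/3* DKO. Totals of the miR-19 seed were 194 ± 28.6 and 235 ± 64.5 CPM.

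The AUUGCAC family, in contrast, summed to 11877 ± 1453 CPM in WT libraries and 11115 ± 2118 CPM in *Tet2/3* DKO libraries, a log2 difference of -0.11 that was 0.13 with library size alone. Most of it, 79.3% in WT and 82.8% in *Tet2/3* DKO, was miR-25-3p. It also holds miR-32-5p, from a locus outside the clusters, which fell from 33.2, 49.0 and 57.7 CPM in the lowest, median and highest WT library to 15.4, 21.2 and 30.7 (log2 fold change -1.11, SE 0.224, edgeR adjusted p = 2.52e-04), with no overlap. The low-abundance miR-92b-3p had a log2 fold change of 0.46 (SE 0.262) and did not pass, except with library size alone (0.71, edgeR adjusted p = 0.0349). In these libraries miR-32-5p was the less abundant arm of its hairpin, with means of 46.9 CPM in WT and 21.6 in *Tet2/3* DKO, against 74.0 and 61.3 for miR-32-3p. At the same loci, neither the hairpin mir-32 (0.02, SE 0.281) nor miR-32-3p (-0.27, SE 0.176) passed, the latter except with upper-quartile scaling (-0.44, edgeR adjusted p = 0.0387). Both mir-92b and miR-92b-5p were too low to be tested. The same was true of miR-6383, which has the AAAGUGC seed and was counted in 1 WT library only.

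**Figure D4:**
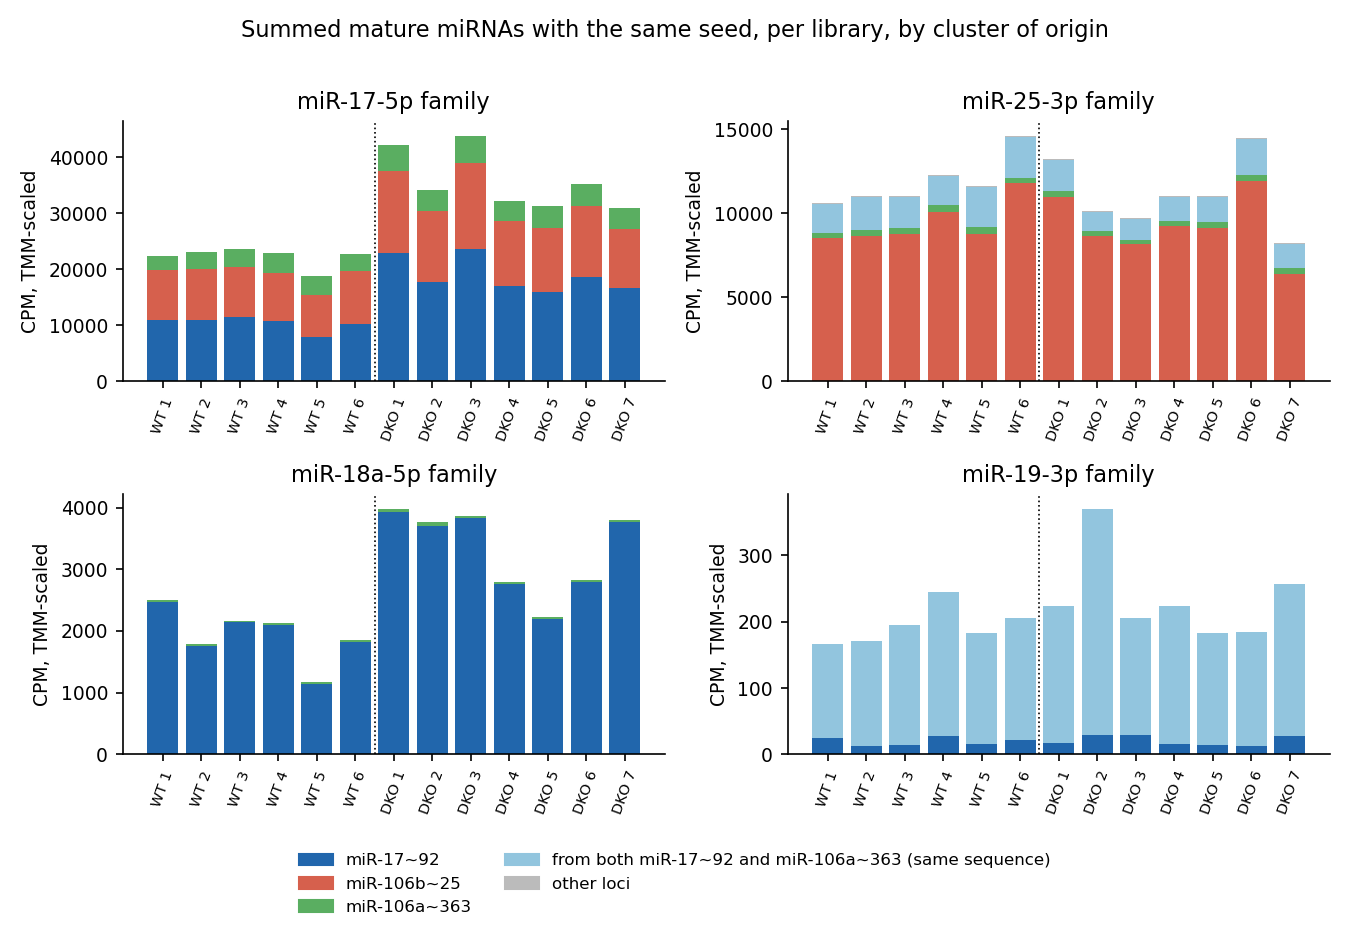
Summed CPM of mature miRNAs with the same seed in each library, stacked by the cluster they come from, with light blue for the sequences made by both miR-17~92 and the X chromosome cluster (mir-106a to mir-363). In the miR-17-5p family all 7 *Tet2/3* DKO bars, from 30961 CPM up, stand above all 6 WT bars, while the genotypes overlap in the other 3 families.

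In the X chromosome cluster, the AAAGUGC hairpins mir-106a (log2 fold change 0.59, SE 0.107, edgeR adjusted p = 1.47e-04) and mir-20b (0.25, SE 0.10, edgeR adjusted p = 0.0377) rose, the latter not with RLE or upper-quartile scaling, with DESeq2 (0.18, adjusted p = 0.142), nor without WT 1 or 2 or *Tet2/3* DKO 1 or 3 (0.21 to 0.24). Its mir-92a-2 fell from 9887, 12691 and 19451 CPM in the lowest, median and highest WT library to 5826, 8026 and 9296, without overlap (log2 fold change -0.84, SE 0.146, edgeR adjusted p = 1.02e-04). The hairpins mir-18b (0.67, SE 0.317), mir-19b-2 (0.36, SE 0.285) and mir-363 (-0.03, SE 0.106) did not pass. With library size alone mir-18b (1.01, edgeR adjusted p = 0.0108), mir-19b-2 (0.71, edgeR adjusted p = 0.0407) and mir-363 (0.31, edgeR adjusted p = 0.0297) passed as higher. With upper-quartile scaling mir-363 passed as lower (-0.27, edgeR adjusted p = 0.0372). Without WT 3 or *Tet2/3* DKO 5 or 7, mir-18b also passed (0.73 to 0.84). As mature miRNAs, miR-106a-5p (0.40, SE 0.112, edgeR adjusted p = 0.00468) and miR-20b-5p (0.39, SE 0.115, edgeR adjusted p = 0.00628) rose without overlap, but not with upper-quartile scaling, and miR-20b-5p not without WT 1 (0.26, edgeR adjusted p = 0.0616). The guide miR-363-3p had a log2 fold change of -0.15 (SE 0.128) and miR-18b-5p of 0.35 (SE 0.232), and neither passed. With library size alone miR-18b-5p passed as higher (0.61, edgeR adjusted p = 0.0434). Of the passengers, miR-20b-3p did not pass (-0.40, SE 0.412), nor did miR-363-5p (-0.40, SE 0.194, edgeR adjusted p = 0.0811), which passed with upper-quartile scaling (-0.57, edgeR adjusted p = 0.0146) and without WT 1, 2 or 3 or *Tet2/3* DKO 5 (-0.60 to -0.51). The passengers miR-18b-3p, at 0 to 34 counts in a library, and miR-106a-3p, at 0 to 4, were too low to be tested.

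The order of the guides changed between genotypes. In WT it ran from miR-25-3p through miR-93-5p, miR-17-5p and miR-20a-5p to miR-106b-5p, miR-92a-3p, miR-18a-5p, miR-19b-3p and miR-19a-3p. The first 4 were in this order in all 6 WT libraries, whereas miR-106b-5p, miR-92a-3p and miR-18a-5p were not apart from one another beyond their spread. In *Tet2/3* DKO libraries miR-17-5p was highest by mean, at 10469 ± 1604 CPM (SD, n = 7), followed by miR-93-5p (9687 ± 1702), miR-25-3p (9213 ± 1815) and miR-20a-5p (8486 ± 1563), each overlapping with the next of these 4. Next came miR-18a-5p and miR-106b-5p, also overlapping, then miR-92a-3p, miR-19b-3p and miR-19a-3p, each apart from the next. Counts of different miRNAs can differ in how well each is captured, so this order is one of counts.

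How closely members varied among mice of one genotype was described by the SD of the log2 ratio of each pair within genotype, which a common scale factor cannot change. The tightest pair was mir-17 and mir-20a, with an SD of 0.08, and their guides had an SD of 0.09. After these came pairs of hairpins on different chromosomes, which followed one another more closely than any other pair within a cluster. The SD was 0.12 for mir-20a and mir-93, 0.13 for mir-17 and mir-93 and 0.15 for mir-92a-1 and mir-25, compared with 0.36 for mir-17 and mir-92a-1, which share a transcript, and 0.45 for mir-106b and mir-25. Medians were 0.67 over the 15 pairs within miR-17~92, 0.32 over the 3 within miR-106b~25 and 0.39 over the 18 between clusters for hairpins, and 0.39, 0.31 and 0.31 for guides. Pairs with mir-19a and mir-19b-1 rest on few counts. Pairs that share bases also share whatever the counting did with near-identical reads, and the part of this in the spread was not tested.

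**Figure D5:**
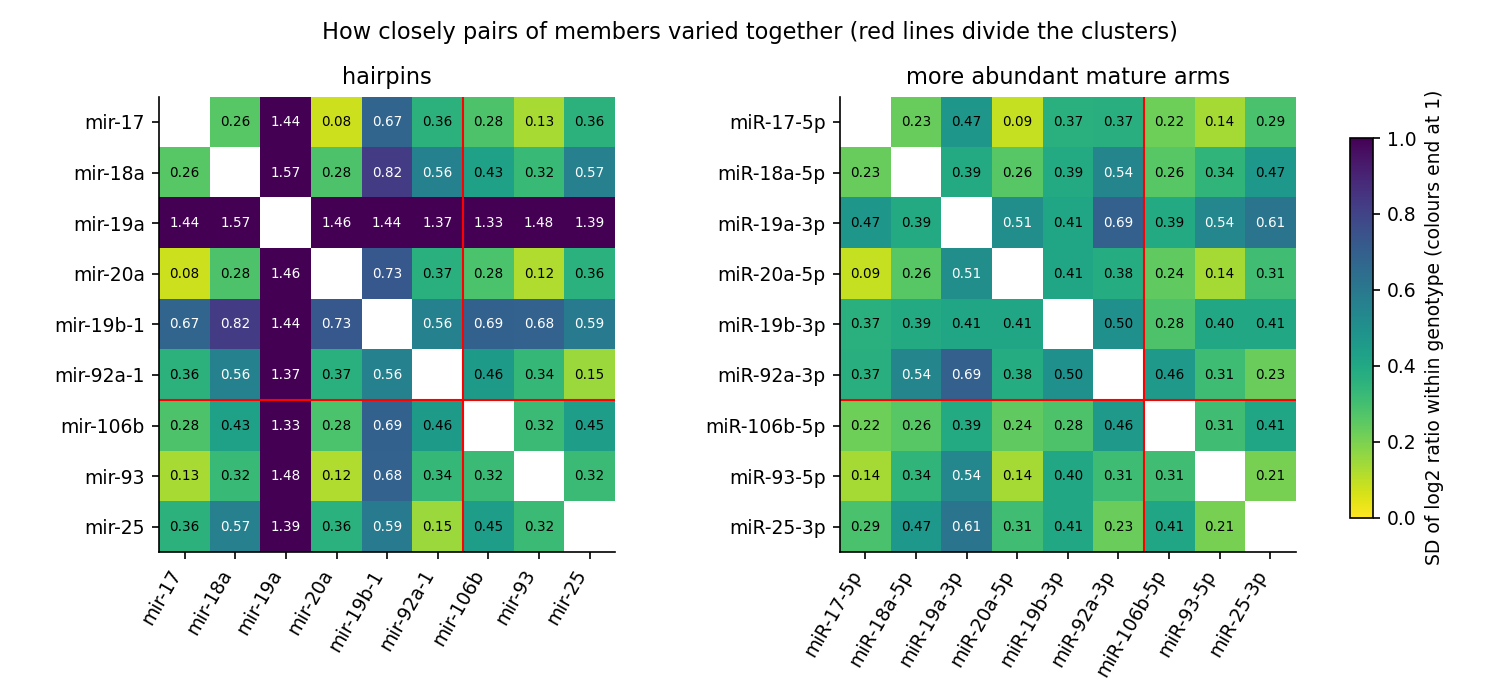
SD within genotype of the log2 ratio of each pair of members, over 6 WT and 7 *Tet2/3* DKO libraries, for hairpins (left) and the more abundant arms (right), with red lines between the clusters and colours that end at 1. Low values (yellow) join mir-17, mir-20a and mir-93 across the clusters, and mir-92a-1 with mir-25, while mir-19a stands apart at 1.33 to 1.57.

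Likeness over all 13 libraries was measured as the root mean square difference of log2 CPM, each miRNA centred on its own mean, among the 400 other mature miRNAs tested. The nearest to miR-17-5p was its cluster mate miR-20a-5p, at 0.0844. The nearest 5 outside the clusters were miR-130b-3p (0.203), miR-467a-5p (0.206), miR-126a-3p (0.217), miR-466c-5p (0.220) and miR-466a-3p (0.229), against a median of 0.720, and the members miR-18a-5p and miR-93-5p came between them, both at 0.220. Nearest to miR-25-3p, the product of miR-106b~25 with the highest mean CPM over the 13 libraries, were let-7d-5p (0.144), miR-652-3p (0.168), miR-103-3p (0.170), miR-16-5p (0.183) and miR-1981-5p (0.196), against a median of 0.574.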

How the data were processed

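Small RNA-seq libraries of sorted thymic iNKT cells came from 6 WT and 7 *Tet2/3* DKO mice. The authors processed the reads with nf-core/smrnaseq at its default parameters. They deposited raw counts per hairpin and per mature miRNA, 1 column per mouse, not normalized. The submitters' processing notes name mm10. The aligner, the miRNA database release and the handling of reads with several matches are not given in the sources used here. Columns left unused numbered 0. Counts come from reads without molecular identifiers used here, so counting error is a lower limit.

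From these counts, both tables were filtered with filterByExpr (minimum count 10, minimum total 15), scaled by TMM and compared by edgeR 4.0.16 (R 4.3.3) with a robust quasi-likelihood test of genotype, adjusted within each table at 0.05. The SE is the log2 fold change over the root of F. No 2 libraries of the same genotype agreed within sampling noise. Ratios used counts plus 0.5 and exact two-sided permutation of libraries (scipy 1.17.1). The scripts were tested on simulated data. Named were all members, all rows of the cluster from mir-106a to mir-363, other miRNAs with a member guide's seed (with mir-32 and mir-92b) and the 5 non-members nearest to the guide of each cluster with the highest mean CPM over the 13 libraries. Members, lists and tests were chosen with earlier results of these data known. Sequences and positions came from RefSeq and GENCODE tables of GRCm38.p6. Alternatives were RLE, library-size and upper-quartile scaling, looser and stricter filters, identical rows taken once, a replicate block, DESeq2 1.42.0, limma-voom (limma 3.58.1), 1 added to ratio counts, no filter for arms, the more abundant arm alone, and leaving out libraries. Within-cluster ratios and leaving out the shallowest library of each genotype were added after values were seen.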

Additional observations from a re-analysis of the deposited data

Results flagged for a closer look

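In 142 checks of a group of libraries, 1 library lay apart from the others by Dixon's criterion in 10, and chance flags about 1 in 20, or 7.1. WT 5 was the lowest WT library for miR-17-5p (log2 CPM 12.07, next 12.48), miR-20a-5p (11.84, next 12.16), mir-93 (10.39, next 10.80), the summed mature arms of miR-17~92 (13.60, next 13.92) and the same sum without arms shared between clusters (13.27, next 13.66). These 5 share much of their counts or vary together, so they are not separate observations. WT 1 had 0 counts of mir-19a, which gave -1 on the log2 scale with 0.5 CPM added (next 3.84) and a log2 ratio of mir-19a to mir-17 of -12.01 (next -8.18). WT 6 had the lowest WT log2 ratio of 5p to 3p of mir-106b (1.76, next 2.27) and the highest of miR-93-5p to miR-106b-5p (2.07, next 1.65), which share the count of miR-106b-5p. *Tet2/3* DKO 3 had the highest log2 ratio of 5p to 3p of mir-20a (7.43, next 6.81).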

How the results depend on the processing

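Of the members, 5 to 6 hairpins and 6 to 8 mature miRNAs passed under every alternative, 6 and 7 to 8 when 1 library was left out. These totals cover different splits. Of the hairpins, 5 were higher and 1 lower as reported, 5 and 0 with library size alone, 3 and 2 with upper-quartile factors and 5 and 0 with the looser filter. Of the mature miRNAs, 6 and 2 became 8 and 0, 5 and 2, and 6 and 0. Scaling set the direction of the smaller differences. The median log2 fold change of all hairpins moved from 0.02 to 0.36 with library size alone and to -0.22 with upper-quartile factors, and that of all mature miRNAs from -0.01 to 0.24 and -0.17. With library size alone, the total of miR-17~92 was 0.20 for hairpins and 0.93 for mature arms, that of miR-106b~25 was 0.85 and 0.50, and mir-363 was 0.31, reversed. With upper-quartile factors the hairpin totals were -0.38 and 0.26. The cause of these shifts was not tested. Leaving out 1 library gave 2 to 3 arm ratios, 1 hairpin to mature ratio and 3 to 5 within-cluster ratios past the threshold (not always of the same pairs), and totals of -0.18 to -0.07 and 0.63 to 0.73 for hairpins and mature arms of miR-17~92. Without the shallowest library of each genotype, 4 arm ratios passed and mir-20a to mir-93 was 0.13.

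In the labels, same-numbered mice shared only a number, and whether they shared a litter or a sort is not given. Their deviations correlated at -0.05 to 0.34 for hairpins, over 0.1 in 2 of 6 pairs, and at 0.01 to 0.34 for mature miRNAs, in 3 of 6, and 2 of 6 WT libraries correlated best with their own number in each table. With the replicate block, which leaves *Tet2/3* DKO 7 without a partner, 6 hairpins and 8 mature members passed, as without it. In the ratios, where *Tet2/3* DKO 7 was left out and 6 pairs allow no exact p below 0.03125, 0 arm ratios (mir-17 and mir-20a at 0.90, exact adjusted p = 0.0547), 0 hairpin to mature ratios (mir-106b 0.47) and 0 within-cluster ratios (mir-92a-1 to mir-17 -1.23) passed, and mir-20a to mir-93 was 0.13 (exact adjusted p = 0.0750). After adjustment over 7, 9 or 14 ratios, a ratio at that lowest p passes only if several others reach it too. The counts of 0 therefore cannot show that these differences were lost.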
